A study of Mus musculus with 22 samples.

Results

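ILC1l cells, innate lymphoid cells of a type 1-like identity, were compared with cNK cells, conventional natural killer cells, both sorted from mammary tumours. The comparison takes the libraries whose population label reads ILC1I or ILC1l, treated as 2 spellings of 1 name, and the libraries labelled cNK. It rests on 4 of the 22 libraries of the study, 2 per population. Both populations came from pooled tumours of female C57BL/6 mice carrying the PyMT transgene, a viral oncogene that gives rise to mammary tumours, at an age of 20 to 24 weeks. Tumours were digested with collagenase and DNase, lymphocytes were enriched on Percoll before flow sorting, and a SMARTer kit served to amplify the cDNA. No untreated or tumour-free tissue enters the comparison. The sources used here do not give the surface gates that separated ILC1l from cNK cells, so any of the surface genes below may be what the sort selected. Nothing in the labels says that the 2 libraries of a population came from separate animals, and the p-values measure only the spread between libraries.

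Innate lymphoid cells are lymphocytes without a rearranged antigen receptor. Conventional NK cells circulate, carry cytotoxic granules and depend on the T-box factor EOMES, whereas type 1 innate lymphoid cells tend to stay in tissue, carry the integrins CD49a and often CD103, and in many organs express little EOMES. Both make interferon-γ and, in C57BL/6 mice, carry the receptors NK1.1 and NKp46.

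Total counts were 12690837 and 12708865 in the ILC1l libraries and 13141323 and 11949036 in the cNK libraries, and each library detected between 16706 and 18082 genes. The Pearson correlation of log2 counts, with 1 added, was 0.946 between the ILC1l libraries and 0.97 between the cNK libraries. Between libraries of different populations it was 0.933 to 0.943, only just below the value within ILC1l cells. For scale, 3 reads equalled 0.228 to 0.251 CPM (reads per 1000000). Levels below are CPM after TMM scaling and do not compare genes of different length. Differences are log2 fold changes of ILC1l over cNK ± SE. Each adjusted p was taken from a quasi-likelihood test in edgeR, with the Benjamini-Hochberg method over 16828 tested genes, and a gene was called at an adjusted p under 0.05. The spread was estimated over 12 libraries of 6 populations, adding 4 T-cell populations of the same set: TCRγδ+ ILTC1, TCRαβ+ ILTC1, TCRγδ+NK1.1− and TCRβ+CD8α+NK1.1− cells. The value from a fit to the 4 ILC1l and cNK libraries alone is given where it changes a call.

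The integrin genes that mark the 2 cell types differed in the direction of the labels. Itga1, which encodes CD49a, had 353 and 263 CPM in ILC1l cells and 3.89 and 7.82 CPM in cNK cells (5.72 ± 0.42, adjusted p = 0.000543). Itgae, whose product CD103 binds E-cadherin, had 1318 and 1721 CPM in ILC1l cells and 2.26 and 9.24 CPM in cNK cells (8.05 ± 0.82, adjusted p = 0.00193). Both genes were high in both ILC1l libraries and near the bottom of the scale in both cNK libraries. Itga2, which encodes the NK-cell integrin CD49b, had 15.6 and 17.4 CPM in ILC1l cells and 227 and 259 CPM in cNK cells, and Eomes had 29.8 and 27.3 CPM in ILC1l cells and 146 and 188 CPM in cNK cells. The libraries of the 2 populations did not overlap for either gene. Neither passed the test in the 12-library fit (Itga2 −3.88 ± 1.01, adjusted p = 0.141; Eomes −2.55 ± 1.71, adjusted p = 0.643), and both passed it in the 4-library fit (Itga2 adjusted p = 0.00072; Eomes adjusted p = 0.00259). By DESeq2, an alternative test over 12 libraries, Itga2 passed (adjusted p = 0.000662) and Eomes did not (0.69). Genes shared by the 2 lineages were expressed in all 4 libraries. Klrb1c, which encodes NK1.1, had 1728 and 1482 CPM in ILC1l cells and 2483 and 2438 CPM in cNK cells, and Ncr1, which encodes NKp46, had 1780.0 and 1648 CPM in ILC1l cells and 2735 and 2550.0 CPM in cNK cells. Neither was called over 12 libraries (Klrb1c −0.62 ± 0.81, adjusted p = 0.862; Ncr1 −0.62 ± 0.96, adjusted p = 0.89), and over 4 libraries the adjusted p was 0.0501 for Klrb1c and 0.0432 for Ncr1. Tbx21, which encodes the T-box factor T-bet, had 105 and 54.7 CPM in ILC1l cells and 172 and 134 CPM in cNK cells (−0.94 ± 0.36, adjusted p = 0.373).

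**Figure D1:**
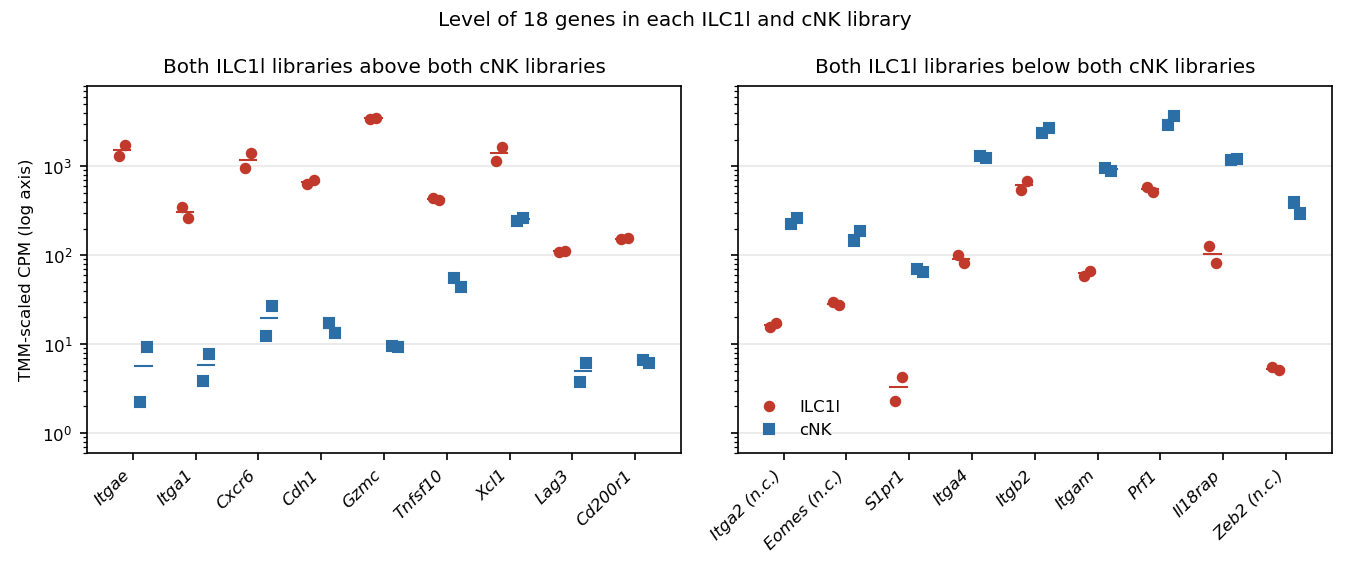
CPM after TMM scaling, on a log axis, of 18 genes in each of the 2 ILC1l libraries (circles) and 2 cNK libraries (squares), with lines at the means; n.c. marks genes not called over 12 libraries. The ILC1l and cNK libraries do not overlap for any gene shown, and Zeb2, at 5.51 and 5.08 CPM in ILC1l cells, and Gzmc, at 9.49 and 9.24 CPM in cNK cells, are among the widest gaps.

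Over all tested genes, 171 of 16828 were called (1.02%), 102 higher (0.606%) and 69 lower (0.41%) in ILC1l cells. The difference was at least 4-fold for 80 of the higher and 47 of the lower genes. In each of the 171 genes both libraries of one population lay above both of the other, which 53.3% of all tested genes did. At an unadjusted p under 0.05 there were 1745 genes (10.4%). The common biological coefficient of variation was 0.757 over 12 libraries and 0.379 over the 4 of the comparison. The 4-library fit called 1519 of 13512 genes (11.2%), 653 higher (4.83%) and 866 lower (6.41%), and shared 169 of the 171 calls. These shares over all tested genes are the background for every count of called list members below. The lists were chosen with earlier results of these data known, so each such count is a description and not a test.

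**Figure D2:**
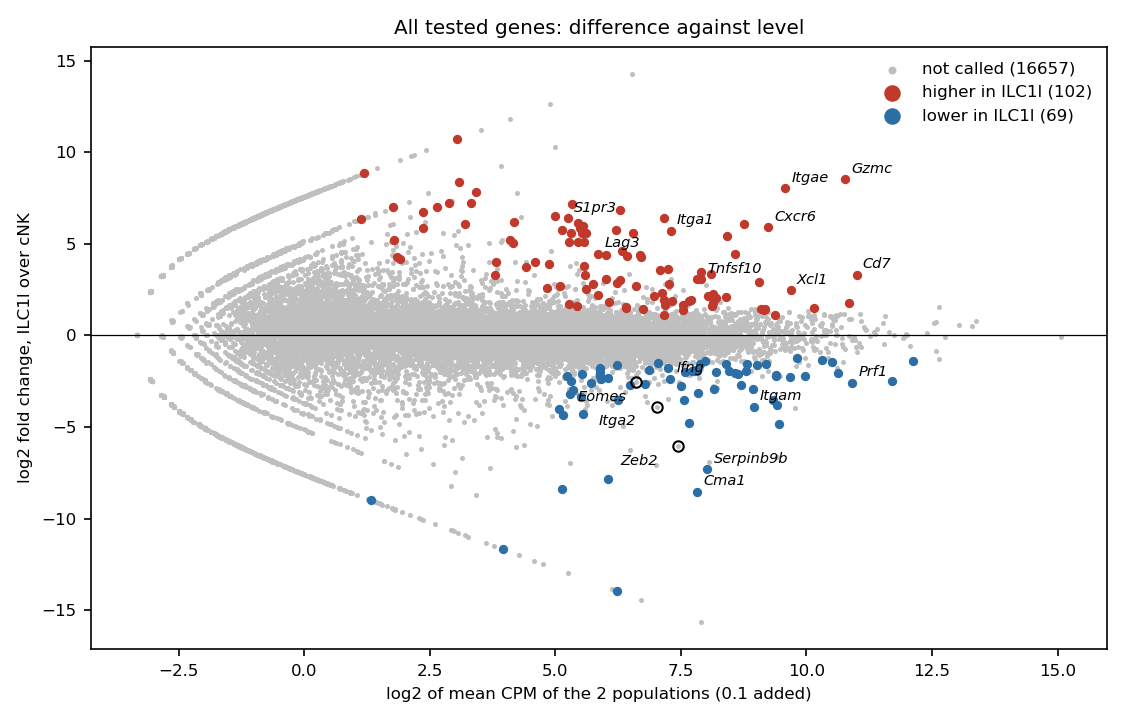
Log2 fold change of ILC1l over cNK against the log2 of the mean CPM of both populations plus 0.1 for the 16828 tested genes, with 102 genes called higher in red, 69 called lower in blue, and Eomes, Itga2 and Zeb2, not called, ringed in black. Of the 171 called genes, 127 lie at or beyond a 4-fold difference, and the outermost curved rows of points are genes with 0 counts in a population, whose fitted difference is not a bound.

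Several genes of type 1 innate lymphoid cells were higher in ILC1l cells. Of 20 listed genes, all tested, 8 were called higher, against 0.606% of all tested genes, and 0 lower. The median log2 difference was 2.83 against 0.033 over all tested genes. Over 4 libraries 13 were called higher, against 4.83% of all genes tested there. Cxcr6, the receptor of the chemokine CXCL16, had 968 and 1405 CPM in ILC1l cells and 12.4 and 26.8 CPM in cNK cells (5.92 ± 0.42, adjusted p = 0.000543). Tnfsf10, which encodes the death ligand TRAIL, had 441 and 414 CPM in ILC1l cells and 55.6 and 44.3 CPM in cNK cells (3.10 ± 0.30, adjusted p = 0.00149). The phosphoinositide phosphatase gene Inpp4b had 502 and 380 CPM in ILC1l cells and 39.2 and 39.3 CPM in cNK cells (3.49 ± 0.41, adjusted p = 0.00411). In these genes the ILC1l libraries were all above the cNK libraries. The other called members of the list, Itga1, Itgae, Cd200r1, Cd160 and Tmem176a, differed by 1.60 to 8.05. Zfp683, which encodes Hobit, a factor of tissue-resident lymphocytes, had 20.2 and 16.7 CPM in ILC1l cells and 0.545 and 0.622 CPM in cNK cells; it was not called (4.96 ± 1.28, adjusted p = 0.135) but passed over 4 libraries (adjusted p = 0.00444). Il7r, Rora and Cd69, often used as tissue or ILC genes, had values of the same order in both populations. Il7r was at 27.3 and 19.6 CPM in ILC1l cells and 19.8 and 27.6 CPM in cNK cells, Rora at 13.1 and 9.07 CPM in ILC1l cells and 11.9 and 13.7 CPM in cNK cells, and Cd69 at 346 and 353 CPM in ILC1l cells and 316 and 373 CPM in cNK cells. Their differences were −0.01 ± 0.59 for Il7r, −0.21 ± 0.49 for Rora and 0.02 ± 0.20 for Cd69, and the libraries of the 2 populations overlapped in each.

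Cdh1, which encodes E-cadherin, the ligand of the integrin formed by Itgae, had the smallest adjusted p of all genes. It had 637 and 695 CPM in ILC1l cells and 17.1 and 13.3 CPM in cNK cells (5.45 ± 0.31, adjusted p = 0.000165). Cdh1 was listed among 16 epithelial and tumour markers, whose summed level was 688 and 721 CPM in ILC1l cells, most of it Cdh1, and 79.8 and 130 CPM in cNK cells, most of it other markers. The keratin gene Krt14 and the milk protein genes Csn2 and Wap were at 0 counts in all 4 libraries, and the other 12 markers had counts in at least 1. Epcam, an epithelial adhesion gene, had 10.6 and 10.7 CPM in ILC1l cells and 0.389 and 2.84 CPM in cNK cells, and was not called (adjusted p = 0.175). The keratin gene Krt18 had 5.12 and 0 CPM in ILC1l cells and 17.6 and 23.0 CPM in cNK cells, and the milk protein gene Csn3 had 17.6 and 3.16 CPM in ILC1l cells and 1.09 and 59.8 CPM in cNK cells; neither was called (adjusted p = 0.543 for Krt18 and 0.742 for Csn3). The tight junction gene Cldn4 was the only other call of this list, with 0 counts in ILC1l cells and 5.99 and 3.64 CPM in cNK cells, at least 40.3-fold lower in ILC1l cells (adjusted p = 0.0383). The call of the gene Cldn4 was lost without each of the 4 libraries (adjusted p = 0.0934 to 0.248). The part of epithelial RNA in these values was not tested. The calls of Itgae, Itga1, Cxcr6, Cdh1 and Tnfsf10 held without any 1 of the 4 libraries. Those of Cd160 and Tmem176a were lost without each of them, those of Cd200r1 and Inpp4b without cNK replicate 1 (adjusted p = 0.0635 for both), and the adjusted p of the lost calls in this group ran up to 0.361. Of the ILC1 list, 4 to 6 genes were called higher when any 1 of the 4 libraries was left out.

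Several genes of circulating mature NK cells were lower in ILC1l cells. Of 24 listed genes, all tested, 7 were called lower, against 0.41% of all tested genes, and 0 higher. The median difference was −2.65, and 23 had both ILC1l libraries below both cNK libraries, as 26% of all tested genes did. Over 4 libraries 21 were called lower, against 6.41% of all genes tested there. S1pr1, a sphingosine-1-phosphate receptor through which lymphocytes leave tissue, had 2.29 and 4.33 CPM in ILC1l cells and 70.3 and 64.7 CPM in cNK cells (−4.35 ± 0.58, adjusted p = 0.00729). Cxcr4, the receptor of CXCL12, had 5.91 and 3.33 CPM in ILC1l cells and 91.0 and 86.2 CPM in cNK cells (−4.26 ± 0.58, adjusted p = 0.0081). In both genes the ILC1l libraries lay far below the cNK libraries, at a few CPM. Cxcr4, and S1pr3 below, were listed with egress and homing genes and not among the 24. In bulk libraries, fewer cells that express a gene and less of its RNA per cell cannot be told apart. Another receptor of the same family went the other way: S1pr3 had 58.0 and 91.6 CPM in ILC1l cells and 0.778 and 0.978 CPM in cNK cells (6.40 ± 1.00, adjusted p = 0.0156). Its call was lost without ILC1l replicate 2 (adjusted p = 0.0683), cNK replicate 1 (0.194) or cNK replicate 2 (0.156).

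Leukocyte integrin genes gave 3 further calls lower. Itga4, the α4 chain, had 101 and 81.3 CPM in ILC1l cells and 1312 and 1232 CPM in cNK cells (−3.80 ± 0.48, adjusted p = 0.00583). Itgam, which encodes CD11b, had 58.4 and 66.7 CPM in ILC1l cells and 959 and 889 CPM in cNK cells (−3.88 ± 0.66, adjusted p = 0.0244). Itgb2, the β2 chain that pairs with Itgam, had 538 and 693 CPM in ILC1l cells and 2374 and 2724 CPM in cNK cells (−2.05 ± 0.33, adjusted p = 0.0182). Of 16 integrin genes tested, these 3 were called lower, Itga1 and Itgae higher and 11 were not called. Of all tested genes 0.606% were called higher and 0.41% lower. Over 4 libraries 3 integrin genes were called higher and 6 lower, against 4.83% and 6.41% of all genes tested there. The next 3 regulators or markers of mature NK cells with wide gaps did not pass over 12 libraries but did over 4. S1pr5, an egress receptor of NK cells, had 3.47 and 3.25 CPM in ILC1l cells and 86.8 and 47.9 CPM in cNK cells (−4.32 ± 1.49, adjusted p = 0.309, over 4 libraries 0.00276). Klf2, a factor that drives S1pr1, had 3.31 and 3.41 CPM in ILC1l cells and 29.0 and 38.6 CPM in cNK cells (−3.33 ± 1.25, adjusted p = 0.362, over 4 libraries 0.00478). Klrg1, an inhibitory receptor of mature NK cells, had 68.1 and 78.4 CPM in ILC1l cells and 430 and 621 CPM in cNK cells (−2.84 ± 1.21, adjusted p = 0.44, over 4 libraries 0.00217). By DESeq2 over 12 libraries S1pr5 passed (adjusted p = 0.0154), and Klf2 (0.0591) and Klrg1 (0.387) did not. Of the mature NK-cell list, 1 to 2 genes were called lower when any 1 of the 4 libraries was left out. The calls of Cxcr4, Itgam and Itgb2 were lost without each of the 4, S1pr1 without ILC1l replicate 1 (adjusted p = 0.0848) or ILC1l replicate 2 (0.05), and Itga4 without ILC1l replicate 2 (0.0744), with the adjusted p of lost calls up to 0.235.

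The cytotoxic machinery did not move as one. Gzmc, a granzyme gene of activated killer lymphocytes in mice, had 3448 and 3534 CPM in ILC1l cells and 9.49 and 9.24 CPM in cNK cells (8.54 ± 0.66, adjusted p = 0.000543). Prf1, which encodes the pore-forming protein perforin, had 592 and 518 CPM in ILC1l cells and 2886 and 3713 CPM in cNK cells (−2.57 ± 0.42, adjusted p = 0.0191). Gzmc was far higher in both ILC1l libraries than in either cNK library, and Prf1 was lower in both of them than in either cNK library. To show the 2 genes whose levels parted, their promoter windows are printed from RefSeq's mouse table (build GRCm38.p6, 250 bases before to 50 after the start, 5′ to 3′ on the gene's strand). Gzmc lies at chr14:56234608-56234907 on the minus strand and Prf1 at chr10:61297586-61297885 on the plus strand. Capitals mark matches, on either strand, to AGGTGT (core of T-box factors such as EOMES and T-bet), TGTGGT (core of RUNX factors), CCACCC (KLF factors) and CACCTG (ZEB factors); in Prf1 a ZEB and a T-box match overlap in 1 run of capitals.
Gzmc: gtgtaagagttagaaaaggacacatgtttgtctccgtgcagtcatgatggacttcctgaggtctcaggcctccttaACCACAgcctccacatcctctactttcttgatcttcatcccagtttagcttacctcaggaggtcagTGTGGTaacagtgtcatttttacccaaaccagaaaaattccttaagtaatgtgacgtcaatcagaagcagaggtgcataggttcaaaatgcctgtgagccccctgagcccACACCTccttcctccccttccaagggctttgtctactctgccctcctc
Prf1: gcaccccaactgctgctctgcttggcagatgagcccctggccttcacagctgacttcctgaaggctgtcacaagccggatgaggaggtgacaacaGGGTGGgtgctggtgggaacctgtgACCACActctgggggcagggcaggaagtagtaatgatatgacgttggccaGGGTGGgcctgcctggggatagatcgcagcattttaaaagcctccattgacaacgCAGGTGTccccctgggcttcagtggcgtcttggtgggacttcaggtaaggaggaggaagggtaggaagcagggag
The Gzmc window held 1 T-box and 2 RUNX matches. The Prf1 window held 1 T-box, 1 RUNX, 2 KLF and 1 ZEB match. Among the 67 genes called higher with a window in the table, 17.9% held the T-box letters and 29.9% the ZEB letters. Among the 52 called lower with a window the shares were 5.77% and 17.3%. Among the 11062 tested genes with a window they were 11.5% and 18.1%. For RUNX the shares were 17.9%, 19.2% and 13.1%, and for KLF 38.8%, 42.3% and 36.5%. These are descriptions of letters in fixed windows, and no difference between them was tested.

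Of the 23 tested genes of granzymes, perforin and granule machinery, 1 was called higher and 2 lower, with a median of −0.156. Over 4 libraries 8 were called higher and 4 lower. Serpinb9b and Cma1, given below, were not among the 23 and were counted in the mature NK-cell list. The granzyme genes next to Gzmc in the same family, Gzmd, Gzme, Gzmf and Gzmg, had 0 counts in both cNK libraries. Gzmf had 69.2 and 50 CPM in ILC1l cells, at least 481-fold higher against 3 counts over both cNK libraries, and Gzmd had 24.5 and 21.3 CPM, at least 184-fold higher. Gzme had 12.5 and 8.57 CPM in ILC1l cells and Gzmg 5.2 and 3.33 CPM. None of these 4 was called over 12 libraries (adjusted p = 0.0781 to 0.412), and all were over 4 (0.00147 to 0.0261). These 5 genes are close relatives, so their values are uncertain where reads could be split among them. Gzmb, the granzyme that cleaves caspases, had 7665 and 11460 CPM in ILC1l cells and 2771 and 3655 CPM in cNK cells (1.57 ± 0.40, adjusted p = 0.131, over 4 libraries 0.0143). Gzma had 2601 and 6062 CPM in ILC1l cells and 6805 and 8984 CPM in cNK cells (−0.87 ± 0.40, adjusted p = 0.497, over 4 libraries 0.177). Serpinb9, which encodes an inhibitor of granzyme B, had 286 and 276 CPM in ILC1l cells and 1382 and 1301 CPM in cNK cells (−2.26 ± 0.34, adjusted p = 0.0121). Its relative Serpinb9b had 2.68 and 3.91 CPM in ILC1l cells and 466 and 572 CPM in cNK cells (−7.30 ± 1.07, adjusted p = 0.0156). Cma1, which encodes a chymase best known from mast cells, had 0.867 and 1.58 CPM in ILC1l cells and 393 and 514 CPM in cNK cells (−8.53 ± 1.25, adjusted p = 0.0157). Of the other 7 mast-cell and basophil markers, the protease genes Mcpt4 and Tpsb2 were at 0 counts in all 4 libraries, and Cpa3, Mcpt8, Ms4a2 and Fcer1a stayed at or below 0.355 CPM. Kit, a growth factor receptor gene of mast cells and other lineages, had 129 and 100.3 CPM in ILC1l cells and 98.2 and 114 CPM in cNK cells (0.11 ± 0.64, adjusted p = 0.998). The call of Gzmc held without any 1 library, and those of Prf1, Serpinb9, Serpinb9b and Cma1 were lost without each of the 4 (adjusted p = 0.0696 to 0.206).

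Cytokine genes also parted. Xcl1, a chemokine that draws cross-presenting dendritic cells, had 1157 and 1633 CPM in ILC1l cells and 245 and 263 CPM in cNK cells (2.46 ± 0.37, adjusted p = 0.0121). Ifng, which encodes interferon-γ, had 35.9 and 66.2 CPM in ILC1l cells and 261 and 263 CPM in cNK cells (−2.36 ± 0.37, adjusted p = 0.0156). Over 12 libraries Xcl1 was the only called gene of 10 chemokine genes, and Ifng and Tnfsf10 the only ones of 18 cytokine and TNF-family genes. Over 4 libraries, 3 of 9 chemokine genes were called higher and 3 lower, and 6 of 13 cytokine and TNF-family genes higher and 1 lower. Il18rap, a chain of the IL-18 receptor, had 127 and 81.5 CPM in ILC1l cells and 1164 and 1223 CPM in cNK cells (−3.52 ± 0.32, adjusted p = 0.00113). Ifngr1, a chain of the interferon-γ receptor, had 698 and 725 CPM in ILC1l cells and 1801 and 1837 CPM in cNK cells (−1.35 ± 0.27, adjusted p = 0.0499). These 2 were called among 21 cytokine receptor genes, and 19 were not; over 4 libraries 2 of 19 were called higher and 5 lower. Without 1 library the calls of Il18rap and Tnfsf10 held. That of Ifngr1 was lost without each of the 4, that of Xcl1 without ILC1l replicate 2 (adjusted p = 0.0925) or either cNK replicate, and that of Ifng without ILC1l replicate 1 (0.156) or either cNK replicate, with the adjusted p of lost calls up to 0.398.

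**Figure D3:**
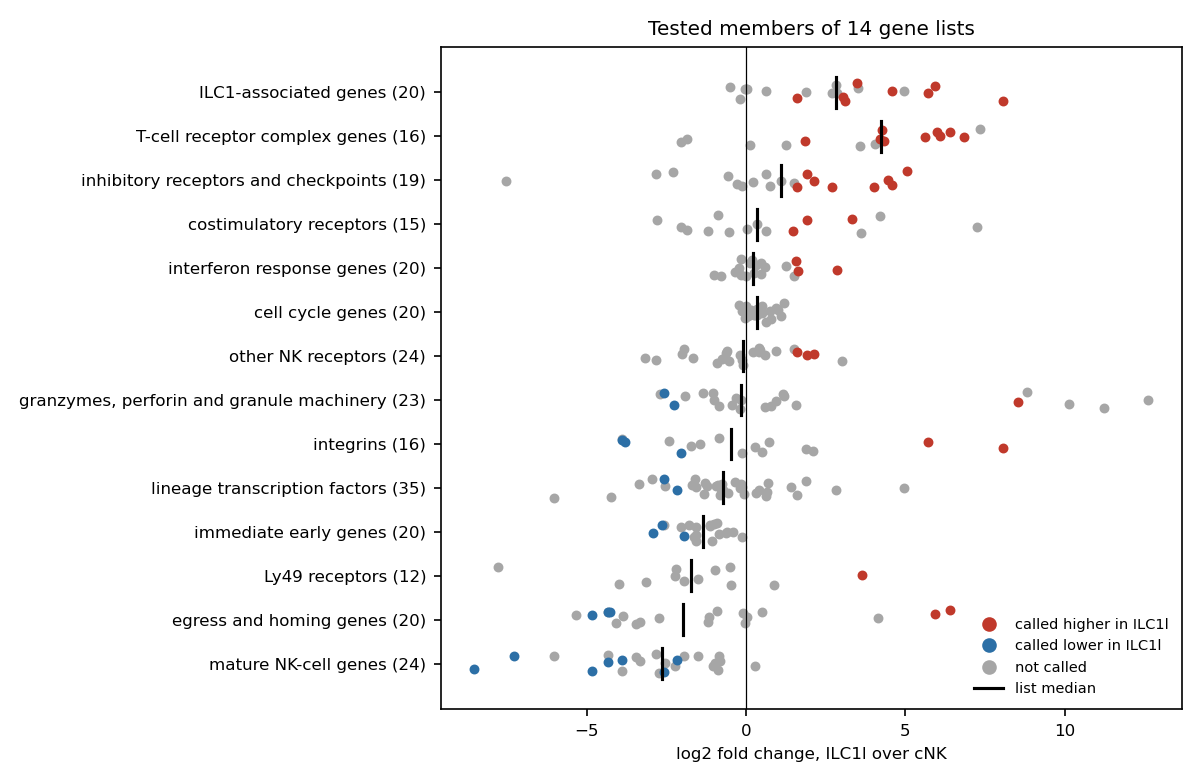
Log2 fold change of ILC1l over cNK for the tested members of 14 gene lists, with genes called higher in red, called lower in blue and not called in grey, and list medians as black bars; the number of tested genes is in brackets. The ILC1-associated list has a median of 2.83 and 8 calls higher, and the mature NK-cell list a median of −2.65 and 7 calls lower; for genes with 0 counts in a population the points are fitted values and the medians use bounds from 3 counts.

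Among 35 tested lineage transcription factors, 2 were called lower and 0 higher, with a median of −0.726; over 4 libraries, 10 of 33 were lower and 2 higher. Irf8 had 250 and 234 CPM in ILC1l cells and 1148 and 1041 CPM in cNK cells (−2.17 ± 0.38, adjusted p = 0.029). Lef1, a factor of the TCF family, had 14.5 and 15.2 CPM in ILC1l cells and 97.2 and 81.3 CPM in cNK cells (−2.59 ± 0.48, adjusted p = 0.0383). Its relative Tcf7 had 74.0 and 72.0 CPM in ILC1l cells and 102 and 116 CPM in cNK cells (−0.58 ± 0.32, adjusted p = 0.57). Zeb2, a repressor that drives the last steps of NK maturation, had one of the widest gaps, with 5.51 and 5.08 CPM in ILC1l cells and 400 and 288 CPM in cNK cells. Prdm1, which encodes Blimp-1, had 12.6 and 14.1 CPM in ILC1l cells and 107 and 101 CPM in cNK cells. Neither was called over 12 libraries (Zeb2 −6.02 ± 1.48, adjusted p = 0.115; Prdm1 −2.96 ± 0.76, adjusted p = 0.133), and both were over 4 (Zeb2 adjusted p = 0.000393; Prdm1 0.00175).

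All 20 immediate early genes had a difference below 0, with a median of −1.35, and 3 were called lower and 0 higher; 16 had both ILC1l libraries below both cNK libraries, as 26% of all tested genes did. Over 4 libraries 10 of 19 were called lower, against 6.41% of all genes tested there. Nr4a1, a nuclear receptor gene induced early after stimulation, had 130.0 and 96.6 CPM in ILC1l cells and 803 and 925 CPM in cNK cells (−2.93 ± 0.29, adjusted p = 0.00157). Nr4a2 had 36.2 and 24.7 CPM in ILC1l cells and 201 and 182 CPM in cNK cells (−2.65 ± 0.32, adjusted p = 0.00441). Zfp36, whose product speeds the decay of cytokine mRNAs, had 66.4 and 106 CPM in ILC1l cells and 328 and 342 CPM in cNK cells (−1.96 ± 0.34, adjusted p = 0.026). Sgk1, a serum- and glucocorticoid-induced kinase, fell likewise (−3.52 ± 0.52, adjusted p = 0.0121). In the TGF-β list of 19 tested genes, Itgae, a gene known to respond to TGF-β, was called higher, Tgif1, a repressor of TGF-β target genes, was called lower and 17 were not called; over 4 libraries 2 of 17 were called higher and 3 lower. Tgif1 had 22.5 and 25.0 CPM in ILC1l cells and 137 and 175 CPM in cNK cells (−2.71 ± 0.39, adjusted p = 0.0101). The receptor gene Tgfbr2 had 204 and 186 CPM in ILC1l cells and 102 and 73.8 CPM in cNK cells (1.15 ± 0.33, adjusted p = 0.186, over 4 libraries 0.0287), and Tgfbr1 had 94.1 and 98.8 CPM in ILC1l cells and 87.8 and 75.3 CPM in cNK cells (0.24 ± 0.68, adjusted p = 0.965). Of the calls among transcription factors, immediate early genes, Tgif1 and Sgk1, that of Nr4a1 held without any 1 library. Nr4a2 was lost without ILC1l replicate 2 (adjusted p = 0.0744) or cNK replicate 1 (0.0514), and Irf8, Lef1, Zfp36, Tgif1 and Sgk1 without each of the 4 (up to 0.357).

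Several inhibitory receptors were higher in ILC1l cells. Of 19 tested genes of inhibitory receptors and checkpoints, 8 were called higher and 0 lower, with a median of 1.08. Of all tested genes 0.606% were called higher. Over 4 libraries 9 of 18 were called higher and 1 lower, against 4.83% and 6.41% of all genes tested there. Lag3, whose product binds MHC class II, had 110 and 111 CPM in ILC1l cells and 3.81 and 6.22 CPM in cNK cells (4.46 ± 0.54, adjusted p = 0.00459). Cd200r1, an inhibitory receptor of myeloid cells and lymphocytes, had 152 and 156 CPM in ILC1l cells and 6.61 and 6.22 CPM in cNK cells (4.58 ± 0.54, adjusted p = 0.00424). Pdcd1, which encodes PD-1, had 13.9 and 55.4 CPM in ILC1l cells and 1.09 and 0.978 CPM in cNK cells (5.05 ± 0.61, adjusted p = 0.00464). Lag3 and Cd200r1 were alike in the 2 ILC1l libraries, whereas Pdcd1 was higher in ILC1l replicate 2. Nt5e, the ectoenzyme CD73 that makes adenosine, had 186 and 153 CPM in ILC1l cells and 22.4 and 29.7 CPM in cNK cells (2.70 ± 0.53, adjusted p = 0.0484). Cish, which encodes a suppressor of IL-15 signalling, had 211 and 245 CPM in ILC1l cells and 66.6 and 54.1 CPM in cNK cells (1.92 ± 0.30, adjusted p = 0.0151). Cd101, Cd160 and Cd96 were called higher too, by 4.02, 1.60 and 2.12. Tigit, an inhibitory receptor that shares the ligand CD155 with Cd96 and Cd226, had 402 and 476 CPM in ILC1l cells and 142 and 169 CPM in cNK cells and missed the threshold (1.5 ± 0.31, adjusted p = 0.0611, over 4 libraries 0.00835).

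Of 15 tested costimulatory receptor genes, Cd226, Tnfrsf9 and Cd7 were called higher and 0 lower; over 4 libraries 3 of 11 were called higher and 4 lower, and by DESeq2 4 of 15 higher and 4 lower. Of 24 other NK receptors, the calls were Cd226 again and the inhibitory receptor genes Cd96 and Cd160 already counted, all higher, whereas over 4 libraries 6 were called higher and 6 lower. Cd226, which encodes the activating receptor DNAM-1, had 359 and 302 CPM in ILC1l cells and 101 and 73.4 CPM in cNK cells (1.92 ± 0.32, adjusted p = 0.023). Tnfrsf9, which encodes 4-1BB, had 829 and 775 CPM in ILC1l cells and 298 and 286 CPM in cNK cells (1.46 ± 0.21, adjusted p = 0.0106). Cd7, a surface protein of T and NK cells, had 2704 and 4733 CPM in ILC1l cells and 313 and 429 CPM in cNK cells (3.33 ± 0.42, adjusted p = 0.00581). Among 12 Ly49 genes, receptors of MHC class I whose near-identical members may share reads, Klra5 was the only call. It had 187 and 371 CPM in ILC1l cells and 19.1 and 26.0 CPM in cNK cells (3.63 ± 0.57, adjusted p = 0.0157). The other 11 were not called, and 10 of the 12 had both ILC1l libraries below both cNK libraries, as 26% of all tested genes did. Over 4 libraries 6 of the 12 were called lower, against 6.41% of all genes tested there, and 1 higher. No call in these receptor lists held in all 4 fits that left out 1 library. Of the 8 inhibitory calls, 4 held without ILC1l replicate 1, 3 without ILC1l replicate 2, 3 without cNK replicate 2 and 0 without cNK replicate 1. Lag3, Cd200r1 and Cd7 were lost without cNK replicate 1 alone (adjusted p = 0.0687, 0.0635 and 0.0711), Pdcd1 without either cNK replicate (0.0635 and 0.0545), Cd101 without ILC1l replicate 2 (0.0757) or cNK replicate 1 (0.0905), Klra5 without ILC1l replicate 2 or either cNK replicate (0.0925 to 0.194), and Nt5e, Cish, Cd160, Cd96, Cd226 and Tnfrsf9 without each of the 4 (up to 0.414).

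Genes of the T-cell receptor complex were counted in ILC1l cells, a population named as innate. Of 16 tested genes, 9 were called higher, against 0.606% of all tested genes, and 0 lower, with a median of 4.23. Both ILC1l libraries lay above both cNK libraries in 13, as in 27.3% of all tested genes. Over 4 libraries 11 of 15 were called higher and 1 lower, against 4.83% and 6.41% of all genes tested there. Cd3g had 391 and 1320 CPM in ILC1l cells and 10.3 and 15.2 CPM in cNK cells (6.07 ± 0.63, adjusted p = 0.00212). Cd3e had 88.4 and 477 CPM in ILC1l cells and 0.623 and 6.13 CPM in cNK cells (6.40 ± 1.05, adjusted p = 0.0214). Cd8a had 52.9 and 256 CPM in ILC1l cells and 0.156 and 2.58 CPM in cNK cells (6.85 ± 1.06, adjusted p = 0.0151). In all 3, ILC1l replicate 2 was well above ILC1l replicate 1, and both were above the cNK libraries. The γ-chain constant genes were called as well: Tcrg-C1 had 64.2 and 116 CPM in ILC1l cells and 1.48 and 2.22 CPM in cNK cells (5.61 ± 0.45, adjusted p = 0.000543), and Tcrg-C4 had 167 and 228 CPM in ILC1l cells and 8.71 and 11.8 CPM in cNK cells (4.27 ± 0.34, adjusted p = 0.000543). The α-chain constant gene Trac, a defining marker of αβ T cells, had 24.3 and 138 CPM in ILC1l cells and 5.29 and 8.35 CPM in cNK cells (3.57 ± 0.72, adjusted p = 0.0545, over 4 libraries 0.0409). Of the β-chain genes, Trbc2 had 186 and 318 CPM in ILC1l cells and 63.0 and 76.2 CPM in cNK cells (1.86 ± 0.33, adjusted p = 0.0291), and Trbc1 had 226 and 353 CPM in ILC1l cells and 252 and 280 CPM in cNK cells (0.12 ± 0.29, adjusted p = 0.949).

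The summed level of the 16 genes was 1361 and 3736 CPM in ILC1l cells and 493 and 559 CPM in cNK cells. The part of T cells among the sorted ILC1l cells in these values, and in the receptor genes that T cells also express, was not tested. Without ILC1l replicate 2, 6 of the genes were still called higher, and without cNK replicate 1, 3 were. Cd3g, Tcrg-C1 and Tcrg-C4 held without any 1 library; Cd3e was lost without ILC1l replicate 2 (adjusted p = 0.0683) or cNK replicate 1 (0.0756), Cd8a without cNK replicate 1 (0.0643), and Trbc2 without ILC1l replicate 2 (0.253) or either cNK replicate (0.347 and 0.183). In addition, 2 genes of proximal signalling were called among 19 tested over 12 libraries, and 3 higher and 5 lower over 4. Plcg1, a phospholipase of T-cell signalling, had 15.1 and 34.9 CPM in ILC1l cells and 2.26 and 2.84 CPM in cNK cells (3.29 ± 0.52, adjusted p = 0.0176). Cd247, the ζ chain shared by the T-cell receptor and NKp46, had 80.9 and 101 CPM in ILC1l cells and 297 and 390 CPM in cNK cells (−1.92 ± 0.28, adjusted p = 0.0108). Both were sensitive to single libraries: Plcg1 was lost without ILC1l replicate 2 (0.111) or either cNK replicate, and Cd247 without each of the 4 (up to 0.15).

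Markers of other cells differed between the libraries as well, and their part in the results was not tested. The summed level of 24 myeloid genes was 1174 and 1178 CPM in ILC1l cells and 1075 and 3865 CPM in cNK cells, so that cNK replicate 2 stood apart; S100a9 was at 0 counts in all 4 libraries. The most abundant myeloid gene, Cd74, had 225 and 285 CPM in ILC1l cells and 376 and 1964 CPM in cNK cells. Of the 24, 0 were called by edgeR over 12 libraries and 6 of 19 were called lower over 4. Of 9 B-cell genes the sum was 729 and 809 CPM in ILC1l cells and 2138 and 1176 CPM in cNK cells. Igkc, the κ light chain, had 12.8 and 14.4 CPM in ILC1l cells and 1785 and 917 CPM in cNK cells (−6.63 ± 1.76, adjusted p = 0.152, over 4 libraries 0.000865). Ighm had 707 and 769 CPM in ILC1l cells and 311 and 232 CPM in cNK cells (1.44 ± 0.35, adjusted p = 0.109, over 4 libraries 0.0105).

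**Figure D4:**
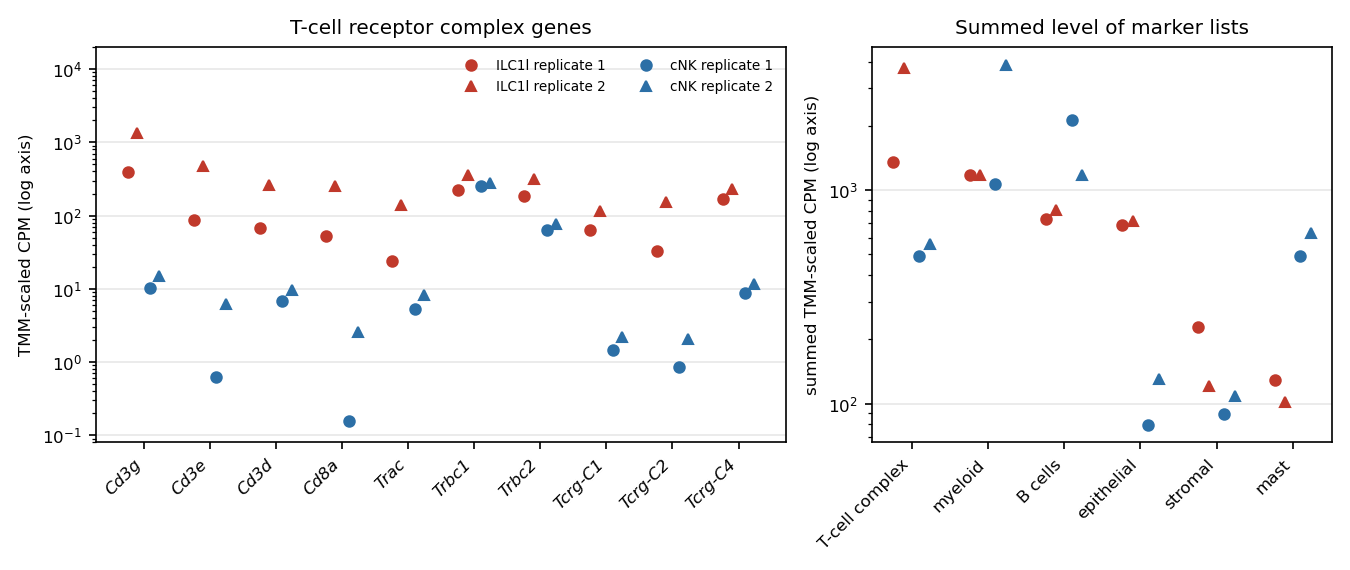
Left, CPM after TMM scaling of 10 T-cell receptor complex genes, and right, summed CPM of 6 marker lists, both on log axes, in ILC1l replicates 1 and 2 (red) and cNK replicates 1 and 2 (blue). ILC1l replicate 2 lies above replicate 1 in every T-cell gene shown, and cNK replicate 2 has the highest myeloid sum, 3865 CPM.

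Beyond the lists, the largest rises by the naming rule included Ly6g5b, with 70.8 and 89.7 CPM in ILC1l cells and 0.311 and 0.8 CPM in cNK cells (7.17 ± 0.60, adjusted p = 0.000594), and the protease gene Klk8, with 119 and 170 CPM in ILC1l cells and 3.27 and 1.96 CPM in cNK cells (5.78 ± 0.49, adjusted p = 0.000611). Tmem273, a membrane protein gene, and Adgrg1, an adhesion G protein-coupled receptor gene, rose by 6.11 and 5.78. Of 20 interferon response genes, 3 were called higher, Isg20, Ifit1 and Oas1a (1.55 to 2.86), and 0 lower, and over 4 libraries 5 were called higher and 1 lower. The largest falls included As3mt, which encodes an arsenic methyltransferase, with 0.473 and 0.666 CPM in ILC1l cells and 122 and 140 CPM in cNK cells (−7.83 ± 0.72, adjusted p = 0.00115). Xdh, which encodes xanthine dehydrogenase, had 27.3 and 32.5 CPM in ILC1l cells and 290 and 409 CPM in cNK cells (−3.54 ± 0.39, adjusted p = 0.00291). Slc37a2, a sugar phosphate transporter gene, had 0 counts in both ILC1l libraries and 26.1 and 35.5 CPM in cNK cells, at least 251-fold lower in ILC1l cells against 3 counts over both libraries (adjusted p = 0.0468). The calls of Ly6g5b, Klk8, Tmem273, Adgrg1, As3mt and Xdh held without any 1 library, and those of Slc37a2, Isg20, Ifit1 and Oas1a were lost without each of the 4 (up to 0.552).

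Set beside the 4 T-cell populations, the genes that separated ILC1l from cNK cells were mostly genes that set cNK cells apart. Of the 102 genes called higher in ILC1l cells, 92 (90.2%) had both cNK libraries below all 10 others, as 3.1% of all tested genes did, whereas 12 (11.8%, against 4.89%) had both ILC1l libraries above all 10 others. Of the 69 called lower, 49 (71%, against 4.47%) had both cNK libraries above all others, and 19 (27.5%, against 1.35%) had both ILC1l libraries below all others. Being called fixes part of these orders, so the shares are descriptions. Itgae averaged 1520 ± 285 CPM in ILC1l cells, 1754 ± 429 in TCRγδ+ ILTC1 cells and 2442 ± 1020 in TCRαβ+ ILTC1 cells, against 5.75 ± 4.94 CPM in cNK cells (SD, n = 2 each). Cxcr6 averaged 1186 CPM in ILC1l cells and 2078 to 2938 CPM in the 4 T-cell populations. Itgae averaged 658 CPM in TCRγδ+NK1.1− cells and 435 CPM in TCRβ+CD8α+NK1.1− cells. For Itgae ILC1l cells thus stood with the ILTC1 populations and above the NK1.1− T cells. For Cxcr6 they stood below all 4 T-cell populations. In both genes ILC1l cells and the T-cell populations lay far above cNK cells.

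Single genes ordered the 6 populations in different ways. Gzmc averaged 3491 CPM in ILC1l cells, 968 in TCRγδ+ ILTC1, 363 in TCRαβ+ ILTC1, 15.8 in TCRγδ+NK1.1− and 14.6 in TCRβ+CD8α+NK1.1− cells, against 9.37 CPM in cNK cells. Xcl1 averaged 1395 CPM in ILC1l cells and 95.6 to 632 CPM in the T-cell populations. Lgals3, which encodes galectin-3, and Car2, a carbonic anhydrase gene, named after their values were seen, were also highest in ILC1l cells; Lgals3 differed from cNK cells by 4.44 ± 0.34 (adjusted p = 0.000543) and Car2 by 1.75 ± 0.22 (adjusted p = 0.00581). The call of Lgals3 held without any 1 library, and that of Car2 was lost without ILC1l replicate 2 (0.0602) or either cNK replicate (0.101 and 0.0545). Ncr1 had 1714 CPM in ILC1l cells, 476 in TCRγδ+ ILTC1, 137 in TCRαβ+ ILTC1, 2.84 in TCRγδ+NK1.1− and 0 in TCRβ+CD8α+NK1.1− cells, against 2642 CPM in cNK cells. S1pr1 averaged 3.31 CPM in ILC1l cells and 25.2 to 96.4 CPM in the T-cell populations, against 67.5 CPM in cNK cells, so it was lowest in ILC1l cells. Prf1 averaged 555 CPM in ILC1l cells and 120 to 177 CPM in the T-cell populations, so its level in ILC1l cells lay between theirs and the 3300 CPM of cNK cells.

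**Figure D5:**
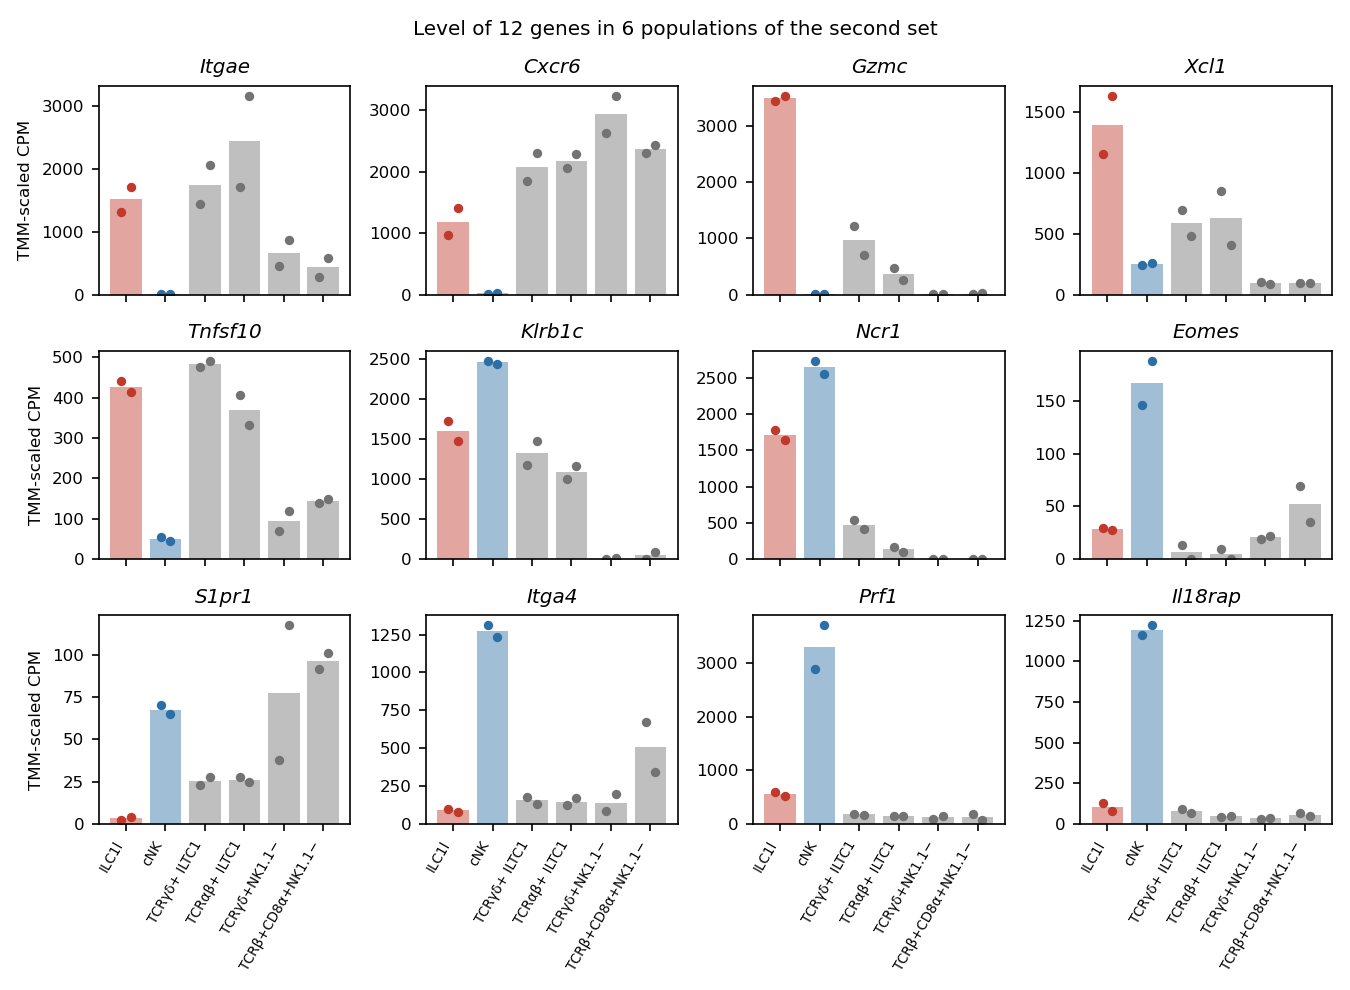
CPM after TMM scaling of 12 genes in 6 populations, with bars at the mean of 2 libraries and points for each library. Itgae and Cxcr6 are lowest in cNK cells, Gzmc and Xcl1 peak in ILC1l cells, S1pr1 is lowest in ILC1l cells, and Itga4, Prf1 and Il18rap peak in cNK cells.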

How the data were processed

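RNA was sequenced from sorted tumour lymphocytes, and the deposited values are raw counts per gene, made by the authors; BWA 0.7.5a, Picard and HTSeq, and the builds mm9 and NCBIM37, are named per the submitters' processing notes, and the sources used here do not say whether counting used strand. Gene IDs were named with GENCODE M21. Counts were tested with edgeR 4.0.16 in R 4.3.3 (TMM scaling, default filter on low counts, quasi-likelihood F test; calls at p under 0.05 after the Benjamini-Hochberg adjustment), with 1 mean per population over 12 libraries; SE is the log2 fold change divided by the square root of F. The code was tested on simulated data. CPM are counts per 1000000 after TMM scaling. Bounds against 0 counts use 3 counts and cover counting error only. An exact permutation test of 2 libraries against 2 cannot go below p = 0.333. Named genes were 35 key genes, the 15 largest called rises and falls of at least 20 CPM, and up to 3 called members per direction of each list. Cell type markers such as Trac and the most abundant genes of the T-cell and marker lists were named too. Other genes fell outside this rule and count as chosen after their values were seen. Among these are Inpp4b, Tmem176a, Cd101, Nt5e, Cish, Tigit, Epcam, Gzmd, Gzme, Gzmf, Gzmg, Lgals3 and Car2. Some genes that the rule names are not reported here. Genes and lists were chosen with earlier results of these data known. Alternatives were other scalings, filters, library sets, a replicate block, DESeq2 1.42.0 and leaving out each library.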

Additional observations from a re-analysis of the deposited data

How the results depend on the processing

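The 171 calls (102 higher, 59.6%, and 69 lower in ILC1l cells) depended on the libraries that shared the estimate of spread and on single libraries, and no called gene reversed direction under any alternative run. DESeq2 called 823 genes (381 higher, 46.3%, and 442 lower), no filter on low counts 787 (315 higher, 40%, and 472 lower), the 4 ILC1l and cNK libraries alone 1519 (653 higher, 43%, and 866 lower), all 22 libraries 327 (180 and 147), 10 libraries without TCRγδ+NK1.1− cells 357 (179 and 178), and 8 libraries without either NK1.1− population, an alternative chosen after seeing the data, 351 (186 and 165). RLE scaling gave 167, upper quartile scaling 189, and leaving out 831 genes that followed myeloid or epithelial markers 200. Without each library in turn, 34 to 79 genes were called, 19 to 68 higher and 8 to 15 lower; the lowest total was without cNK replicate 1, and the lone library was assumed to vary like the other populations. Of the 171, 25 were called in all 4 of these fits and 90 in none. Whether the replicate numbers paired the samples could not be told. The correlation of replicate differences was 0.078 between ILC1l and cNK, and −0.041 to 0.123 over all pairs of populations. A low correlation over all genes cannot exclude a shared pool or batch. A replicate block called 184 genes (109 and 75), of which 154 were among the 171. Values near 0 changed sign: the gene Cd69 was −0.00835 over 22 libraries, −0.078 without marker-following genes and −0.10 to 0.18 without each library; the gene Il7r was 0.048 with upper quartile scaling and −0.27 to 0.28 without each library. Without each library, the gene Rora ran between −0.50 and 0.043, and the gene Trbc1 between −0.22 and 0.40. The cause was not tested.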

Other observations

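Proliferation, glycolysis and survival genes gave 2 calls over 12 libraries. Of 20 cell cycle genes, 0 were called by edgeR over 12 libraries, with a median log2 difference of 0.327, and 1 was called higher over 4 libraries. Of 20 glycolysis and hypoxia genes, Pfkp, which encodes a phosphofructokinase, was the only call over 12 libraries, and 2 of 19 were called higher and 3 lower over 4. Pfkp had 149 and 147 CPM in ILC1l cells and 613 and 680 CPM in cNK cells (−2.12 ± 0.25, adjusted p = 0.00433). It was lost without ILC1l replicate 1 (0.0512) or ILC1l replicate 2 (0.0744). Of 16 survival genes, Pmaip1, which encodes the pro-apoptotic protein NOXA, was the only call over 12 libraries, and 5 of 14 were called lower over 4. Pmaip1 had 5.12 and 13.2 CPM in ILC1l cells and 67.6 and 77.4 CPM in cNK cells (−2.99 ± 0.58, adjusted p = 0.0451). It was lost without each of the 4 libraries (0.0925 to 0.292). Of 13 tested genes of type 2 and type 3 innate lymphoid cells, 0 were called over 12 libraries, and 1 of 4 was called lower over 4 libraries. The summed stromal and endothelial markers were 228 and 121 CPM in ILC1l cells and 89.1 and 109 CPM in cNK cells, with 0 of 10 tested called. The 6 tested erythroid and platelet genes and the 6 of plasmacytoid dendritic cells also gave 0 calls over 12 libraries.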
